A study of Homo sapiens with 2 samples.

Results

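Chromatin accessibility was examined at 7 genes of the splicing programme that accompanies the epithelial to mesenchymal transition (EMT). ESRP1, ESRP2, RBFOX2, QKI, MBNL1 and PTBP1 encode RNA-binding splicing regulators, and CD44 is a transcript that several of them splice. The genes were listed by name, and their peaks were taken by position. Each gene was given a window of its body and 20 kb on either side of every annotated transcript start. Together the windows spanned 1088 kb of hg38. They held 46 of the 74757 peaks in the No gRNA list and 44 of the 75217 peaks in the All gRNA list, and the 7 genes were compared with 19970 protein-coding genes.

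The libraries were ATAC-seq libraries of SUM159 cells, an established triple-negative breast cancer line of mesenchymal character. Both cell populations were transduced with pLV-KRAB, a lentiviral vector for dCas9-KRAB, in which a nuclease-dead Cas9 carries the repressor domain KRAB. The No gRNA cells, labelled as an empty vector control, carried it with no targeting guide. The All gRNA cells carried it with 4 guides against the promoter of ZEB1, the zinc finger repressor that drives EMT. Each condition was 1 library of a selected, transduced population, so no test between conditions could be made, and every difference below is one between these libraries.

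During EMT, cells exchange exons in transcripts for adhesion and signalling proteins. The ESRP proteins favour the epithelial exons, while RBFOX2, QKI and MBNL1 favour mesenchymal or differentiated patterns, and PTBP1 is a widespread repressor of exon inclusion. ZEB1 is known to repress ESRP1, and CD44, a receptor for hyaluronan, carries a block of variable exons that ESRP proteins retain in epithelial cells and that mesenchymal cells skip.

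The lists gave peaks and their strength, not reads. The number of read ends piled up at each summit (the summit pileup) was recovered from the deposited fold and p-value. The All gRNA library had 0.743 times the depth of the No gRNA library, or about 6540000 against 8800000 read ends. Ratios of All gRNA to No gRNA were scaled for this and carry exact 95% binomial intervals, which cover counting error only and not the spread between cultures. Around the main start of ZEB1 the No gRNA list held 2 peaks over 943 bp and the All gRNA list held none. Of the mesenchymal markers, 7 of 7 had promoter peaks in each list. Of the 8 epithelial markers 4 did, CDH1 and CLDN4 had one in the No gRNA list only, and GRHL2 and OVOL1 had none. Over all protein-coding genes 71.3% had one in both lists and 2.92% in the No gRNA list only.

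Peaks of the 7 genes were mostly common to both libraries. In the No gRNA list 10 of 46 peaks (21.7%, interval 10.9 to 36.4%) overlapped no All gRNA peak, where 24.7% of all No gRNA peaks did. In the All gRNA list 8 of 44 peaks (18.2%, interval 8.19 to 32.7%) overlapped no No gRNA peak, where 23.8% of all All gRNA peaks did. Both shares lay near those of the whole lists, and both intervals held them. The other 36 peaks of each list overlapped 1 peak of the other list each and formed 36 pairs, with a median log2 ratio of summit pileups of -0.02, against -0.11 over all 48041 pairs. Of these pairs 19 were lower and 17 higher in the All gRNA library. No pair was called higher by more than 2-fold with an interval that left out 1 (2.44% of all pairs were), and 1 pair was called lower (3.27% of all pairs were).

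**Figure D1:**
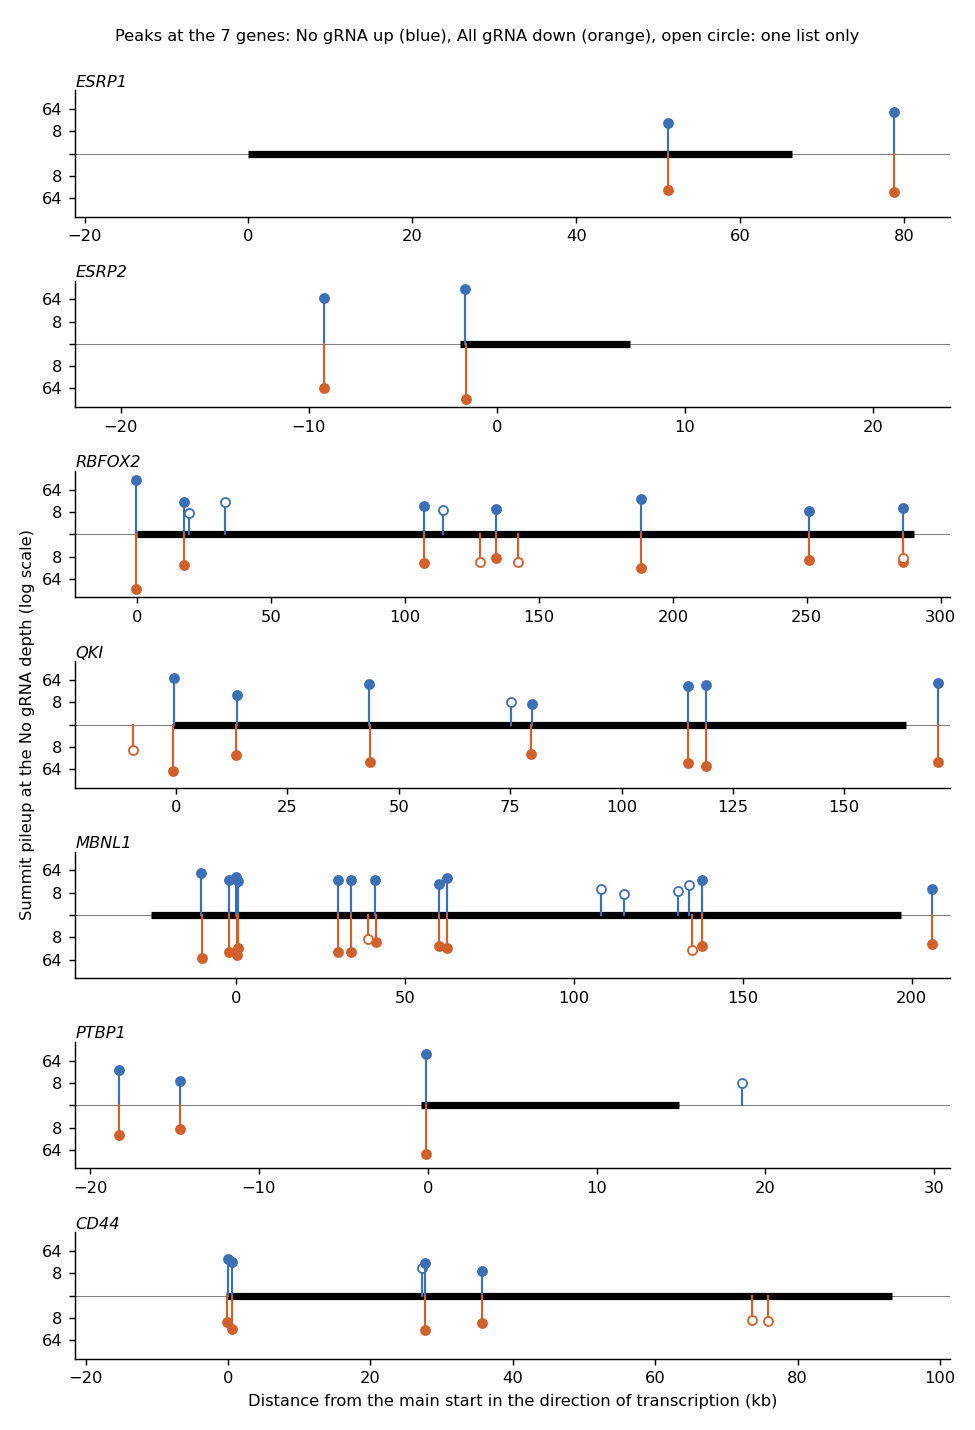
Peaks in the windows of the 7 genes by distance of the summit from the main start in the direction of transcription (kb, x axis) and summit pileup at the No gRNA depth (read ends, log scale, y axis), with No gRNA peaks upward in blue, All gRNA peaks downward in orange, open circles for peaks in 1 list only and the gene body as a black bar. Most stems are mirrored across the axis, and the open circles lie mainly within RBFOX2, MBNL1 and CD44.

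Peaks at a transcript start were nearly all found in both libraries. Of the 12 No gRNA peaks with a summit within 1000 bp of a start of their own gene, 0 were missing from the All gRNA list (interval 0 to 26.5%, with 14.8% over all No gRNA promoter peaks). Of the 13 such All gRNA peaks, 1 was missing from the No gRNA list (7.69%, interval 0.195 to 36%, with 9.77% over all All gRNA promoter peaks). That peak lay near the start of CD44-AS1, an antisense gene within CD44, where a CD44 transcript also starts. Counted within 4000 bp of any start, 6 of the 7 genes had a promoter peak with and without the guides, as had 71.3% of protein-coding genes. The exception was ESRP1.

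ESRP1 encodes the epithelial splicing regulator that is lost in mesenchymal cells. None of its 11 annotated starts had a peak within 1000 bp in either list, and none appeared within 4000 or 10000 bp of a start. A peak list leaves out weaker signal, so this states that no peak was called there with or without the guides. The only peak in the gene body lay in intron 13 and was called in both libraries. Its summit pileup was 18 without the guides and 22 with them, a scaled ratio of 1.64 (0.842 to 3.25), and its −log10 q, the peak caller's p-value corrected for the number of places tested, was 15.4 and 22. The interval held 1, so the difference was within counting error. The remaining peak of the window belonged to the start of the neighbouring DPY19L4, with pileups of 49 and 27 and a ratio of 0.741 (0.446 to 1.21).

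ESRP2, the paralogue that shares exon targets with ESRP1, differed from it in having an open start region in both libraries. The peak did not lie at the main start. Its summits were 1.69 kb upstream of it without the guides and 1.62 kb upstream with them, at alternative starts of ESRP2 that lie beside the start of the lncRNA ENSG00000261469. Only 2 of the 12 ESRP2 starts had a summit within 1000 bp, the same number in each list. The pileup was 166 without the guides and 127 with them, which gave a ratio of 1.03 (0.811 to 1.31). By −log10 q the peak stood at the 98.1 percentile of the No gRNA list and the 98.9 percentile of the All gRNA list. The other peak in the window was at the start of PLA2G15, with a ratio of 0.866 (0.587 to 1.27). Peaks within 1000 bp of ESRP2 starts covered 770 bp without and 739 bp with the guides.

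RBFOX2 encodes an RNA-binding protein that activates or represses exons depending on which side of them it binds. Its main promoter peak had a pileup of 157 without the guides and 126 with them. The scaled ratio was 1.08 (0.847 to 1.37), so the difference was within counting error. RBFOX2 is long and has many starts, and 12 of its 18 starts had a summit within 1000 bp in each list. Among its start peaks, that at 188 kb downstream had pileups of 27 and 18 with a ratio of 0.897 (0.465 to 1.69), and that at 251 kb had 9 and 8 with a ratio of 1.2 (0.402 to 3.49). The strongest shared intronic peak of RBFOX2, in intron 1 at 17.6 kb, had pileups of 20 and 13. Its ratio was 0.875 (0.4 to 1.85). The 7 RBFOX2 pairs had ratios from 0.856 to 1.2, and no interval left out 1.

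QKI encodes a KH-domain protein of the STAR family that binds introns and also acts in circular RNA formation. Its promoter peak was the widest of the 7 genes, 1725 bp without the guides and 1556 bp with them. The pileups were 79 and 57, a ratio of 0.971 (0.678 to 1.38). Its strongest intronic peaks were called in both libraries. The summit in intron 2 had pileups of 44 and 25 with a ratio of 0.765 (0.448 to 1.28), and the strongest in intron 3, at 119 kb, had 41 and 36 with a ratio of 1.18 (0.734 to 1.9). A weaker summit in intron 3, at 79.8 kb, gave the highest ratio of any pair of the 7 genes, 2.31. It rested on pileups of 7 and 12, and its interval of 0.837 to 6.92 held 1. The lowest of the 7 QKI pairs was 0.659 (0.387 to 1.1), in the flank at 171 kb. QKI also had a peak in only 1 list in each direction. These were a No gRNA peak in intron 3 at 75.2 kb with a pileup of 8 and a −log10 q of 4.71, and an All gRNA peak 9.56 kb upstream with a pileup of 8 and a −log10 q of 5.31.

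MBNL1 encodes a muscleblind protein, a regulator of developmental exon choice. It held the most peaks, 15 without and 13 with the guides. The peak at its main start had a pileup of 33 without the guides and 31 with them, a ratio of 1.26 (0.749 to 2.13), although the summits lay apart. The No gRNA summit was 36 bp upstream of the main start and the All gRNA summit 378 bp downstream of it. A second start, 30.2 kb downstream, had pileups of 27 and 23 with a ratio of 1.15 (0.628 to 2.08). The lowest MBNL1 pair was in intron 2 at 41.2 kb, with pileups of 26 and 9, a ratio of 0.466 and an interval of 0.192 to 1.03 that just held 1. The other start peaks of the window were nearest to starts of the antisense gene MBNL1-AS1, with ratios of 1.24 and 0.995. The strongest intronic pair of MBNL1 lay 10.3 kb upstream of the main start, in the gene body but outside the main transcript. It had pileups of 52 and 40 and a ratio of 1.04 (0.668 to 1.59). Over the 11 MBNL1 pairs the ratios ran from 0.466 to 1.35.

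PTBP1 encodes the polypyrimidine tract-binding protein. Its promoter peak had a pileup of 118 without the guides and 71 with them, and the scaled ratio was 0.81 (0.595 to 1.1). The interval held 1, and 40% of protein-coding genes with a shared peak at the main start had a ratio at or below that of PTBP1. Its gene body held no peak away from the start in either list. In the flank, a peak 18.3 kb upstream had pileups of 26 and 12 with a ratio of 0.621 (0.285 to 1.28), and the No gRNA list alone held a weak peak 18.6 kb downstream with a −log10 q of 2.76. A peak at the start of LINC01836, 14.7 kb upstream, had pileups of 10 and 7.

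CD44 gave the only pair of the 7 genes whose interval left out 1, where 12.3% of all pairs had such an interval. It was the peak at the main start, and it was also the pair called lower by more than 2-fold, as were 2.84% of all promoter pairs. Without the guides the peak, chr11:35138851-35139436, was 586 bp wide with a pileup of 30, a fold of 9.17 over the local background and a −log10 q of 20.5. With the guides it was called at chr11:35138990-35139194, 205 bp wide with a pileup of 9, a fold of 4.39 and a −log10 q of 3.76. The scaled ratio was 0.404 (0.169 to 0.872). At the No gRNA depth, the All gRNA pileup of 9 amounted to 12.1. The No gRNA peak also reached over the start of the divergent lncRNA CD44-DT, which the shorter All gRNA peak did not reach.

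The neighbouring start peak differed less. That peak of CD44, 598 bp downstream, had pileups of 24 and 16 and a ratio of 0.897 (0.445 to 1.76). To compare genes, each was represented by 1 shared pair within 1000 bp of its main start. Where several qualified, as at CD44, the pair with the highest No gRNA pileup was taken, a choice that can lower the ratios. Among 10717 protein-coding genes with a shared peak at the main start, the median ratio was 0.856. The interval of the CD44 main start peak, 0.169 to 0.872, left out 1 but held this median. A ratio at or below that of CD44 was found in 84 of them (0.784%), and 267 genes (2.49%) were called lower by more than 2-fold by the same rule. Among the 2576 genes with a No gRNA pileup of 20 to 45, close to that of CD44, the share at or below its ratio was 1.63%. Both shares cover only starts still called with the guides. Starts whose peak was not called there are left out, and 14.8% of all No gRNA promoter peaks had no All gRNA partner. The weak All gRNA peak stood at the 5.07 percentile of its list by −log10 q, near the lower limit of what was called.

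**Figure D2:**
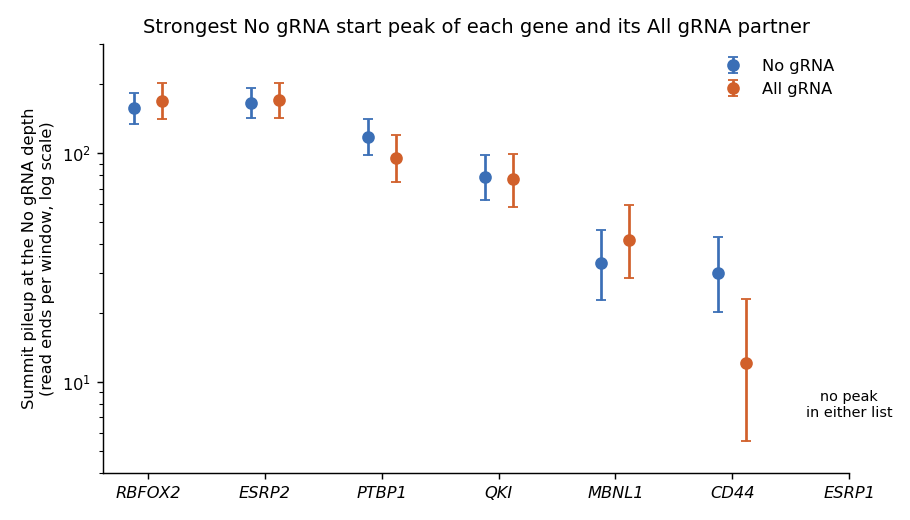
Summit pileup, at the No gRNA depth, of the strongest No gRNA start peak of each gene and of its All gRNA partner (read ends, log scale, y axis), No gRNA in blue and All gRNA in orange, with exact 95% counting intervals as bars and 1 library each. The pileups of CD44, 30 and 12.1, are farther apart on the log scale than those of the other 5 genes with a start peak, and ESRP1 had no start peak in either list.

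Within the introns of the 7 genes, 8 of 24 No gRNA peaks were in that list only (33.3%, interval 15.6 to 55.3%), beside 29% of all intronic No gRNA peaks. Of the 20 intronic All gRNA peaks, 4 were in that list only (20%, interval 5.73 to 43.7%), beside 29.2% of all intronic All gRNA peaks. Both intervals held the share of the whole list. These counts took summits outside the annotated exons of any gene and over 1000 bp from any start. The RBFOX2 intron 1 peak at 32.8 kb, described below, had its summit in an annotated exon outside the main transcript and was not counted. The 16 intronic pairs had a median log2 ratio of 0.00 and split evenly, with 8 lower and 8 higher. Over all 18963 intronic pairs the median was -0.06.

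The peaks found in only 1 list had pileups from 7 to 20 in both libraries, with a median of 9.5 without the guides and 8 with them. Scaled to the depth of the other library, 9 of the 10 pileups from the No gRNA list lay over the lowest pileup callable there. So did 8 of the 8 from the All gRNA list. This comparison left out counting error, and peaks in only 1 list were picked for being high in that list. Why they had no partner was not tested. Of these peaks 5 in each list had a −log10 q of at least 5. Sequences around intronic summits among them are shown as examples of sites called in only 1 library. Each is the plus strand of hg38, 75 bases on either side of the summit, and capitals mark the E-box CAGGTG (searched on both strands), the class of site ZEB1 binds, or the related E-box CAGCTG.
RBFOX2 intron 1, No gRNA only, chr22:35995983-35996133: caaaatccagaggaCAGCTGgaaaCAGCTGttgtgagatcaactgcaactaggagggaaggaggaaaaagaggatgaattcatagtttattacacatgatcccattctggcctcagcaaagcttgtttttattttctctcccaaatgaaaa
RBFOX2 intron 2, No gRNA only, chr22:35914712-35914862: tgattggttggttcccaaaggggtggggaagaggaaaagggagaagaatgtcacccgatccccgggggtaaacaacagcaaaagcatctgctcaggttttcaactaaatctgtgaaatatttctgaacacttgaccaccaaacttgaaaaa
RBFOX2 intron 2, All gRNA only, chr22:35900778-35900928: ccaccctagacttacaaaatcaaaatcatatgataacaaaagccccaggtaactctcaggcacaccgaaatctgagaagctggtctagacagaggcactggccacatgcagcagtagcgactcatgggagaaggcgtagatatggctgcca
RBFOX2 intron 2, All gRNA only, chr22:35886509-35886659: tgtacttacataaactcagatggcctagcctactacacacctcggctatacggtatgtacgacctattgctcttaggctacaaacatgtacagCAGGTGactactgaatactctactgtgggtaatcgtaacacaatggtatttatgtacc
MBNL1 intron 2, No gRNA only, chr3:152403288-152403438: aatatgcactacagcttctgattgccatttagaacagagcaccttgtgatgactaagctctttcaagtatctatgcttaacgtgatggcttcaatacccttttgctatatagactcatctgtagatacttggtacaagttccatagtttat
MBNL1 intron 2, All gRNA only, chr3:152403889-152404039: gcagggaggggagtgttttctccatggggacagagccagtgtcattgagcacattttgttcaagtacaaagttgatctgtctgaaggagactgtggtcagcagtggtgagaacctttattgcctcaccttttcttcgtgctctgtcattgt
CD44 intron 1, No gRNA only, chr11:35166349-35166499: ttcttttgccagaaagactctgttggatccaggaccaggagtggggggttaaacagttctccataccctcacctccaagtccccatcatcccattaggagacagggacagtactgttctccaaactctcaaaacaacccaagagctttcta

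In RBFOX2 the strongest peak in only 1 list was in intron 1, 32.8 kb from the main start, in the No gRNA library. It had a pileup of 20, a fold of 12.5 and a −log10 q of 20.8, and its window held 2 copies of CAGCTG. The summit also lay in an annotated exon outside the main RBFOX2 transcript. The nearest annotated start was that of ENSG00000279652, 3737 bp away. In intron 2, the No gRNA library alone had a peak at 114 kb with a pileup of 10. The All gRNA library alone had peaks at 128 kb and 142 kb, each with a pileup of 10 and a −log10 q of 8.72. The last of these held a CAGGTG. Over the whole gene each list had 3 peaks without a partner, of which the weakest were a No gRNA peak at 19.5 kb and an All gRNA peak in exon 14.

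MBNL1 also had unpartnered peaks of both lists within intron 2. The No gRNA library alone had a peak at 134 kb with a pileup of 17. The All gRNA library alone had a peak at 135 kb with a pileup of 20 and a −log10 q of 14.2, the strongest All gRNA peak of the 7 genes without a partner. Its summit lay 601 bp from that of the No gRNA peak at 134 kb, so the 2 lists marked neighbouring, non-overlapping stretches. With a gap of up to 1000 bp allowed between partners, these 2 peaks counted as shared. In CD44 the No gRNA peak of intron 1 at 27.3 kb, with a pileup of 13, lay 456 bp from a shared summit with pileups of 20 and 18.

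The variable exons of CD44 carried no peak. In the main transcript of 18 exons they are exons 6 to 14, which the 9-exon standard transcript lacks, and they span chr11:35196746-35211449. Neither list had a summit there. Downstream of the block the No gRNA list had no peak and the All gRNA list had 2. These lay at 73.6 kb and 75.9 kb with pileups of 7 and 8, near the starts of ENSG00000251194 and CD44-AS1. Both were weak peaks, with −log10 q of 4.32 and 5.93.

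**Figure D3:**
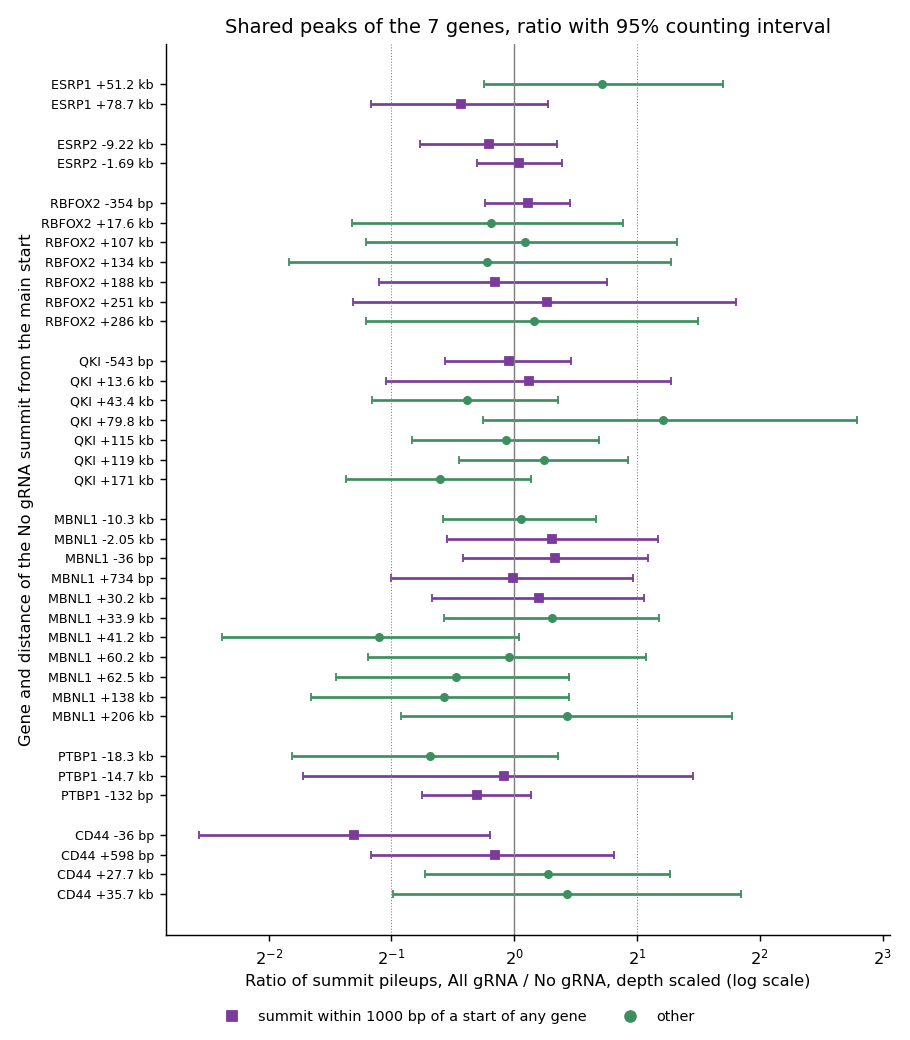
Ratio of summit pileups, All gRNA over No gRNA at equal depth (log scale, x axis), for the 36 shared pairs by gene and distance of the No gRNA summit from the main start (y axis), with exact 95% counting intervals, squares for summits within 1000 bp of a start of any gene and circles for others. All intervals cross 1 except that of the CD44 peak 36 bp upstream of its main start, at 0.404.

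Covered length gave a further view of the same windows. Each of the 7 genes had fewer bases under peaks in the All gRNA library, from 78.3% of the No gRNA length at PTBP1 and 79.8% at CD44 to 91.5% at RBFOX2 and 93.1% at ESRP1. The median was 85.8%. Over 17517 genes 68.7% were shorter in the All gRNA library, and the median was 89.9%. The No gRNA peak was the wider one in 24 of the 36 pairs and in 29143 of all 48041 pairs, and the part of depth in the lengths was not tested.

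E-box and AP-1 sequences near the summits were counted next. Within 100 bp of the summit, CAGGTG on either strand was found in 3 of the 46 peaks without the guides (6.52%, interval 1.37 to 17.9%) and 1 of the 44 with them (2.27%, interval 0.0575 to 12%), beside 11.6% and 13.1% of all peaks of those lists. The second interval left out the share of its list. Among peaks in only 1 list it was found in 2 of the 10 without the guides (interval 2.52 to 55.6%) and 1 of the 8 with them (interval 0.316 to 52.7%). These stood beside 11.7% and 16.4% of all peaks in only 1 list, which both intervals held. CAGCTG was found in 5 of the 46 and 2 of the 44 peaks (10.9% and 4.55%), beside 12.4% and 12%. The AP-1 site TGACTCA or TGAGTCA was found in 12 and 12 (26.1% and 27.3%), beside 23.5% and 24.3%. For these other motifs each interval held the share of its list. These are matches of letters and not measured binding. Around the main starts, 500 bp on either side of them, ESRP1 and ESRP2 each held 3 CAGGTG sites and MBNL1 held 1. RBFOX2, QKI, PTBP1 and CD44 held none. At least 1 such site was found at 58.5% and at least 3 at 9.77% of 19962 protein-coding starts.

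Other genes of this programme were compared in the same way. Of 26 further splicing factors linked to EMT, 24 had a promoter peak in each list, and RBFOX3 and MBNL3, paralogues of the genes above, had one in the All gRNA list only. Such a peak was in the All gRNA list only at 2.56% and in the No gRNA list only at 2.92% of protein-coding genes. The 19 with a shared main start peak had ratios from 0.641 at RBM4 to 1.08 at HNRNPK, with a median of 0.9, and 0 were called lower or higher, beside 2.49% and 0.523% of protein-coding genes. Of 20 genes with exons exchanged in EMT, 20 had one in each list. Their 16 shared main start peaks had a median ratio of 0.801, and EXOC7, a subunit of the exocyst whose exons ESRP1 controls, was called lower with pileups of 32 and 9 and a ratio of 0.378 (0.159 to 0.811). FGFR2, the receptor whose paired exons ESRP proteins choose between, was the highest with pileups of 49 and 49 and a ratio of 1.35 (0.887 to 2.04).

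**Figure D4:**
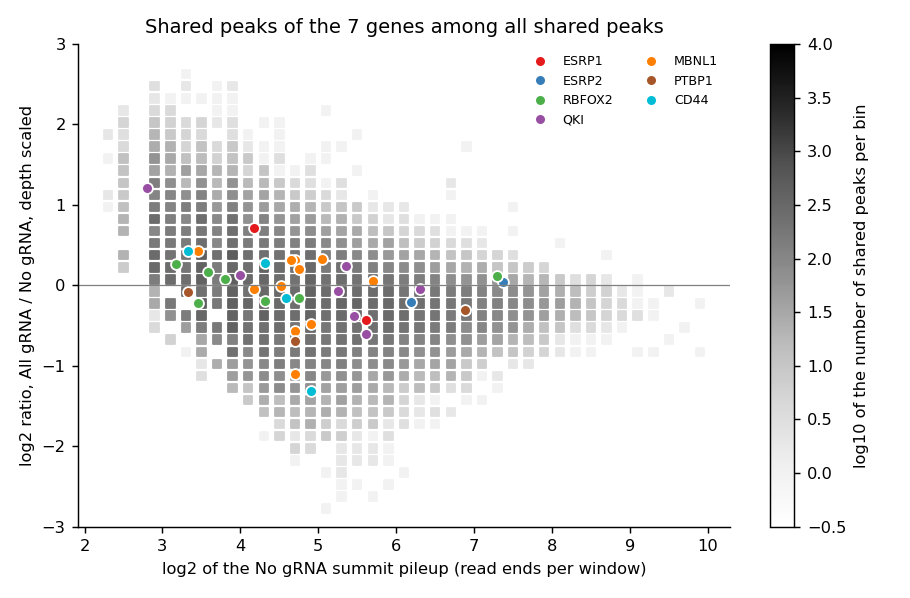
Log2 ratio of summit pileups, All gRNA over No gRNA at equal depth (y axis), against log2 of the No gRNA summit pileup (x axis), with the 36 pairs of the 7 genes as coloured points over the 48041 pairs of the whole lists as grey bins (darker for more pairs, log10 scale). The points lie within the grey cloud, which spreads at low pileups, and the CD44 main start peak is the lowest point at -1.31.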

How the data were processed

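ATAC-seq peaks of 2 SUM159 libraries, 1 per condition, were analysed as deposited. The authors trimmed reads, mapped them to hg38, removed duplicates and mitochondrial reads, and called peaks in each library with MACS2 without a control. The deposited columns held a score, a fold over local background (a ratio), a −log10 p-value and a −log10 q-value per peak, and the score was not used.

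Pileup and background were solved from the deposited fold and −log10 p, which gave whole pileups for 100% of peaks. Depth came from the lowest background, with a window of 200 bp read from the shortest peaks (the methods state 150 bp). If pileups count both ends of a fragment, which the lists do not show, the intervals are narrower than counting fragments would give. Peaks overlapping by 1 bp or more were shared, and pairs needed a single partner on each side. Peaks were placed by summit in GENCODE release 44, with 1000 bp for the promoter class of a peak and 4000 bp for the promoter of a gene. A pair was called when its ratio was over 2-fold in either direction and its exact 95% interval left out 1. Totals cover chromosomes 1 to 22 and X for shares. Peaks were described singly if nearest a main start, strongest in an intron, in 1 list only with a −log10 q of at least 5, or with an interval without 1. A few others, including the QKI and MBNL1 pairs of extreme ratio, were added after their values were seen, as were the motif counts at main starts. The genes and lists were chosen with earlier results of these data known. An MBNL1 peak in 1 list only is not reported here. Recovery was tested on simulated peaks. Python 3.11.15, numpy 2.4.6, pandas 2.3.3, scipy 1.17.1, pyfaidx 0.9.0.4 and matplotlib 3.10.9 were used. Alternatives are given at the end.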

Additional observations from a re-analysis of the deposited data

How the results depend on the processing

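The counts, the median ratio, the calls, the intronic shares and the CD44 ratio were recomputed under alternatives. Of 39 alternative values, 28 were graded the same as the one reported and 11 as moved, and the grade was broad. The No gRNA only intronic share of 33.3%, graded the same, was 42.1% with a promoter class of 4000 bp. It was 21.1% for peaks with a −log10 q of at least 5. The All gRNA only intronic share of 20% was 21.4% and 16.7% under these settings. Motif shares, covered lengths and the other gene lists were not recomputed. Counting only peaks whose −log10 q reached 5 left 5 of 39 unpartnered without the guides and 5 of 38 with them. A limit of 10 left 1 of 30 and 1 of 23 in the same order. Among the 50000 strongest peaks of each list there were 4 of 32 and 5 of 33. With 50 kb around every start there were 16 of 62 and 12 of 58. Shares of the whole lists are not given under these settings, so these counts were not compared with them. The median log2 ratio was 0.08 when scaled by the median of all shared peaks, 0.10 when scaled within classes of strength, and 0.02 when both lists were held to a −log10 q of 5 or more, so its sign depended on the setting while its size stayed small. That last filter left 0 pairs called lower, because the All gRNA peak at the CD44 main start had a −log10 q of 3.76. Scaled by the median of all pairs, the CD44 ratio was 0.435 (0.182 to 0.94). No paired analysis was possible because there was only 1 library per condition, and none could be left out. At the All gRNA depth, the No gRNA peak downstream of PTBP1 would have had a pileup of 5.94, beside the 6 needed for a call. This comparison left out counting error, and why that peak had no partner was not tested.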
